A study of Saccharomyces cerevisiae with 4 samples.

Results

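The COPI coat and its retrieval receptors were followed by the mRNA levels of 9 genes, found by systematic name among the 6679 gene identifiers of the deposited table. They comprise the 7 subunits of the coat, COP1 (YDL145C), SEC26 (YDR238C), SEC27 (YGL137W), SEC21 (YNL287W), RET2 (YFR051C), RET3 (YPL010W) and SEC28 (YIL076W), and 2 receptors, ERD2 (YBL040C) and RER1 (YCL001W). The membership rule used names and no measured values, but the members and lists were chosen with earlier results of these data known. Poly(A) RNA was sequenced from 4 libraries of exponentially growing SK1 yeast in rich medium, all labelled wild type. Of these, 2 came from cells given ethanol as vehicle, in volumes matched to 20 nM and 40 nM of the inducer. The other 2 came from cells given 20 nM or 40 nM of the compound labelled bEST, which the labels do not spell out. The study compares growing cells with and without high levels of spliced HAC1 mRNA from an exogenous drive, whose construct, promoter and clone the labels do not describe. Hac1 switches on genes of the unfolded protein response when its mRNA is spliced. The labels give neither ploidy nor mating type. Nor do they name separate cultures within a group, so p-values measure the spread between these libraries, which may be technical.

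COPI is the protein coat of vesicles that bud from the Golgi and carry proteins back to the endoplasmic reticulum (ER). Its subunits form a complex, coatomer, that the GTPase Arf1 recruits to Golgi membranes as a unit. COPI reads dilysine signals on the tails of ER membrane proteins directly. Soluble ER proteins that leak forward carry the C-terminal residues HDEL, which the receptor Erd2 binds in the Golgi and releases in the ER, and Rer1 retrieves membrane proteins through signals in their membrane spans.

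Libraries were checked first. Values are given in RPKM, reads scaled by coding length and by library depth. HAC1 read 487 and 528 RPKM in vehicle libraries, against 5922 and 3712 RPKM under inducer, at 20 nM and 40 nM in turn. Depth, recovered from the values, was 2133000 and 2599000 reads for the vehicle libraries and 1183000 and 4161000 reads for the inducer libraries. Each of the 36 member values came to within 0.01 of a whole number of reads, from 179 to 3971. Of the marker lists, 6 genes of growing cells summed to 18036 and 20094 RPKM in vehicle libraries, against 30349.5 and 22849 RPKM under inducer, and 10 middle and late meiotic genes to 14.5 and 14.6, then 18.4 and 23.4 RPKM. Of the 6 growth genes 0 rose and 0 fell, at a median log2 fold change of 0.53. At an unadjusted p under 0.05, 3 of the 6 were higher, against 9.07% of tested genes. Of the 10 meiotic genes, 1 was high enough to be tested, and 0 were called. Mating genes moved with the inducer: 6 of 7 a-cell markers, 4 of 5 alpha-cell markers and 8 of 12 pheromone response genes rose. These are calls at an adjusted p under 0.05, at which 2.48% of tested genes rose. The a-cell sum went from 425 to 791 RPKM up to 2011 to 3157. For alpha-cell markers it went from 37.2 to 47.7 up to 481 to 837. For pheromone response genes it went from 61.6 to 66.6 up to 486 to 669. None of these mating markers was at 0 in both vehicle libraries, but some lay near it. PRM1 read 0.24 and 0.20 RPKM there, FIG1 0.56 and 1.38, and FUS1 0 and 1.56. Others were higher, such as MFA2 at 16.4 and 20.2 RPKM. The part of the mating genes in the values of the COPI genes was not tested. These are bulk libraries, in which fewer cells of a type and less RNA per cell cannot be told apart.

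With inducer, the mRNAs of all 7 coat subunits and of ERD2 were higher in both libraries than in either vehicle library, and RER1 was the exception. RET3, the zeta subunit, was the member that passed the test across all genes, with about 2.18-fold more mRNA. The 9 members had a median log2 fold change of 0.98, where all 5317 tested genes had a median of -0.02. Fold changes here stand on the log2(RPKM + 1) scale, so those of low genes are understated, and the test was limma with Benjamini-Hochberg adjustment over all tested genes at an adjusted p of 0.05. All 9 members passed the filter of a mean of at least 5 RPKM. The count of 1 rise in 9 stands beside a background of 2.48% of tested genes that rose, and no member fell, where 0.733% of tested genes did. At an unadjusted p under 0.05, 7 of the 9 were higher, against 9.07% of tested genes. Both inducer libraries lay above both vehicle libraries for 8 of the 9, against 23.0% of tested genes.

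The count of calls varied with the libraries used. With 1 library left out, its group is a single library that is assumed to vary like the other group, whose pair sets all of the spread. The log2 difference between the libraries of a pair had an SD across all tested genes of 0.432 for vehicle and 0.628 for inducer. This describes the pairs and is not the spread within a gene that limma uses. The inducer libraries differ in dose and also in depth. Without the vehicle library matched to 20 nM or that matched to 40 nM, 0 members rose, against 2.31% of tested genes in each case. Without the 20 nM inducer library 2 rose, against 1.95%. Without the 40 nM inducer library, with the spread from the vehicle pair alone, 7 members were called higher and 1, RER1, lower, where calls over all tested genes also went up, to 5.81% and 7.87%. With no variance trend in limma 0 rose, against 2.03%, and RET3 had an adjusted p of 0.0791.

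**Figure D1:**
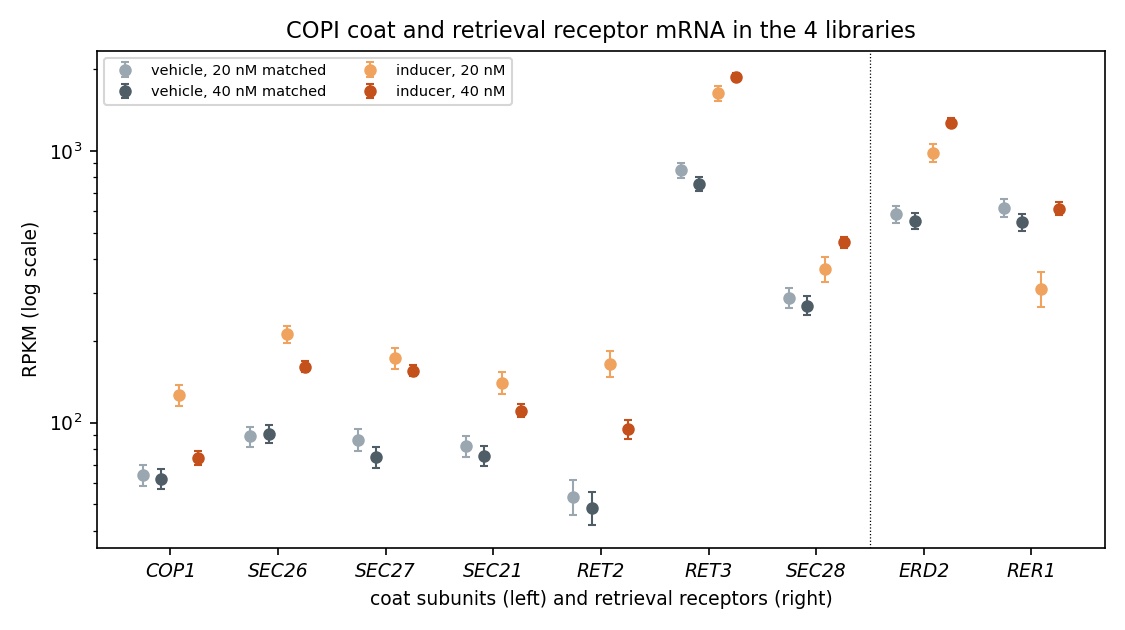
RPKM (log scale) of each coat subunit and receptor in the 4 libraries, 1 point per library; bars are 95% Poisson intervals, which cover counting error only. Both inducer points lie above both vehicle points for 8 of the 9 genes, and the 20 nM inducer library holds the lowest RER1 value, 310 RPKM.

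Among the small subunits, RET3 read 848 and 757 RPKM in vehicle libraries, against 1629 and 1871 RPKM under inducer. The groups did not overlap, and the log2 fold change was 1.12 (SE 0.20, n = 2 against 2, limma adjusted p = 0.0318). RET3 encodes the small subunit that pairs with gamma-COP, in a part of the coat related to the adaptors of clathrin. With either vehicle library left out, that matched to 20 nM and then that to 40 nM, the RET3 log2 fold change was 1.21 and 1.04, and the call was lost with the spread taken from the inducer pair alone (limma adjusted p = 0.104 and 0.238). SEC28, the epsilon subunit that stabilises alpha-COP, read 288 and 270 RPKM in vehicle libraries, against 367 and 460 RPKM under inducer. Its groups were separate too, at a log2 fold change of 0.56 (SE 0.23, limma adjusted p = 0.287).

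RET2, the delta subunit, read 53.1 and 48.4 RPKM in vehicle libraries, against 165 and 94.5 RPKM under inducer. It had the highest fitted change of the 9 members, 1.28, with an SE of 0.30, and did not pass (limma adjusted p = 0.0775). Its inducer libraries differed from each other by 0.80 on the log2 scale, the 20 nM library being higher.

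The large subunits build the cargo-binding cage and the adaptor core. COP1, the alpha subunit, read 63.99 and 61.95 RPKM in vehicle libraries, against 126 and 73.9 RPKM under inducer. SEC27, the beta-prime subunit, which with alpha-COP binds dilysine signals, read 86.4 and 74.7 RPKM in vehicle libraries, against 172 and 155 RPKM under inducer. The COP1 inducer libraries lay far apart and the SEC27 pair close together, and the fitted changes were 0.61 (SE 0.29) and 1.02 (SE 0.22). SEC26, the beta subunit, read 88.9 and 90.6 RPKM in vehicle libraries, against 212 and 161 RPKM under inducer. SEC21, the gamma subunit, read 81.9 and 75.3 RPKM in vehicle libraries, against 141 and 111 RPKM under inducer. For all of these the inducer libraries lay above the vehicle libraries, and none passed the test. The log2 fold change was 1.03 for SEC26 (SE 0.24, limma adjusted p = 0.0735) and 0.66 for SEC21 (SE 0.23, limma adjusted p = 0.219). SEC27 had a limma adjusted p of 0.0674 and COP1 of 0.371.

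The receptors differed in direction. ERD2, the HDEL receptor, read 584 and 551 RPKM in vehicle libraries, against 983 and 1272 RPKM under inducer, a log2 difference of 0.98 (SE 0.22, limma adjusted p = 0.0716). Both inducer libraries were above the vehicle libraries. RER1, the receptor for membrane proteins, read 617 and 546 RPKM in vehicle libraries, against 310 and 614 RPKM under inducer, so its groups overlapped. Its fitted change was -0.41 (SE 0.34, limma adjusted p = 0.617) and rests on the 20 nM inducer library, without which it was 0.08. Without the 40 nM inducer library it was -0.90, a value of the 20 nM inducer library alone set against the spread of the vehicle pair (limma adjusted p = 0.0405). The RER1 reads behind the 310 RPKM numbered 186, with a 95% Poisson interval of 267 to 358 RPKM, which lies below all other RER1 values.

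Each inducer library set against the vehicle of the same volume shows how unevenly the inducer libraries contributed. Dose and library cannot be told apart here, since the inducer libraries also differ in depth. HAC1 itself read higher at 20 nM (5922 RPKM) than at 40 nM (3712 RPKM). There is 1 library per dose and treatment, so these ratios have no replicate error, and their 95% intervals cover counting error alone. At 20 nM the log2 ratio ranged from -0.99 (RER1, interval -1.23 to -0.76) to 1.63 (RET2, interval 1.36 to 1.91). At 40 nM it ranged from 0.17 (RER1, interval 0.04 to 0.30) to 1.31 (RET3, interval 1.21 to 1.41). COP1 was 0.98 at 20 nM and 0.26 at 40 nM, whereas ERD2 was 0.75 and then 1.21 and SEC28 0.35 and then 0.77. SEC27 was nearly level, at 1.00 and 1.05.

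Coding length moved with these ratios. Across the 5178 tested genes with a coding length in the R64 reference, the 20 nM ratio was higher in longer genes (Spearman rho 0.376) and the 40 nM ratio less so (rho 0.123). These correlations describe genes within the same libraries and carry no p. The median 20 nM ratio was -0.39 among the 938 genes of up to 600 coding bases, which include RET3 and RER1, and 0.38 among the 713 genes above 2500 bases, which include COP1, SEC26, SEC27 and SEC21. At 40 nM the same classes had medians of -0.15 and 0.06. Set against the median of their own length class, all 8 higher members stayed above it at both doses. RET3 did so by 1.33 and 1.46, ERD2 by 1.13 and 1.12, and COP1 by 0.59 and 0.19. These 8 were already higher in both inducer libraries than in either vehicle library. Where the class median was negative, as for RET3, ERD2 and SEC28 at 20 nM, lying above it was therefore given in advance. The share of all tested genes above their class at both doses was not counted. RER1 lay 0.60 below its class at 20 nM and 0.32 above it at 40 nM.

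With a smooth trend on coding length removed from every library, a step chosen after seeing the data, 4 members rose, against a background of 4.13%. The log2 fold change of RET3 was 1.32 (SE 0.16, limma adjusted p = 0.0106) and that of ERD2 1.14 (SE 0.15, limma adjusted p = 0.0133). SEC27 rose by 0.85 and SEC26 by 0.84 (limma adjusted p = 0.0412 and 0.0434). The ERD2 ratios at 20 nM and 40 nM were then 1.11 and 1.18, and those of RET3 1.31 and 1.33, so that the doses were nearly level for both genes. SEC28, at 0.67 and 0.68, was level too. The doses stayed apart for RET2 (1.69 and 0.83), COP1 (0.54 and 0.17) and RER1 (-0.62 and 0.19). SEC26 was at 0.95 and 0.73, SEC27 at 0.76 and 0.94 and SEC21 at 0.51 and 0.45. For the fold change, COP1 was then at 0.36, SEC21 at 0.48 and RER1 at -0.21, with limma adjusted p of 0.386, 0.186 and 0.707. RET2 was at 1.26 and SEC28 at 0.67, and neither passed (limma adjusted p = 0.0889 and 0.0655). This step removes length trends between the groups as well as between the doses, and what made the values depend on length was not tested.

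**Figure D2:**
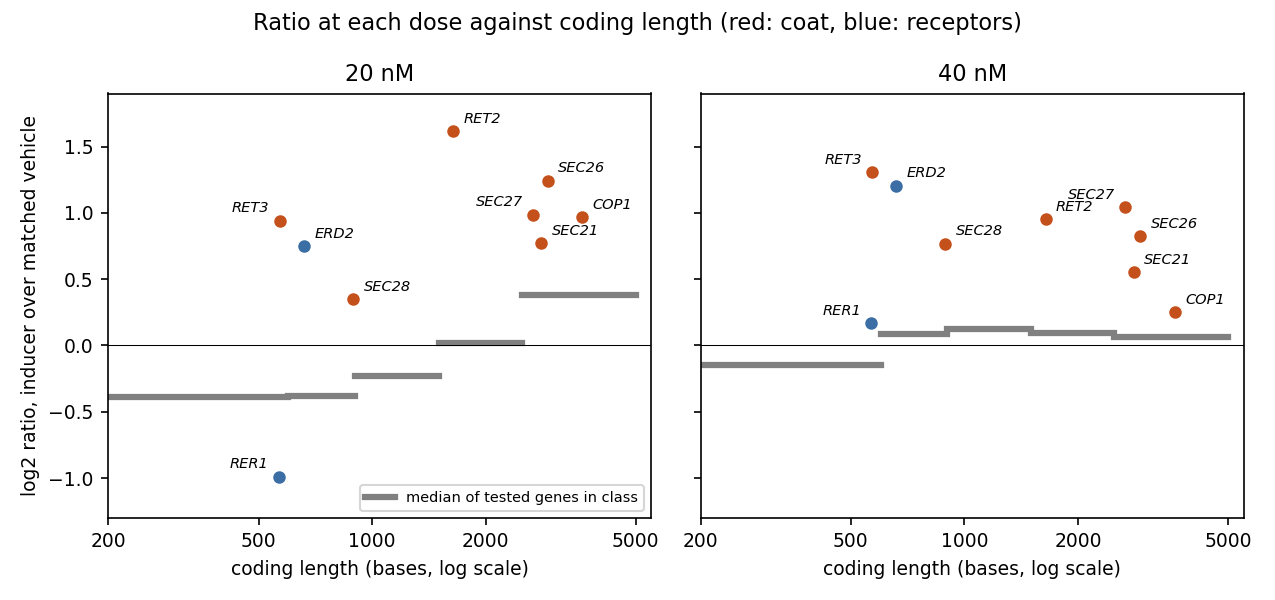
Log2 ratio of inducer to the matched vehicle library at 20 nM (left) and 40 nM (right) against coding length in bases (log scale); points are the 9 members, and grey bars the median of tested genes in each length class. At 20 nM the class medians climb from -0.39 to 0.38 with length, and RER1 is the member below its class.

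**Figure D3:**
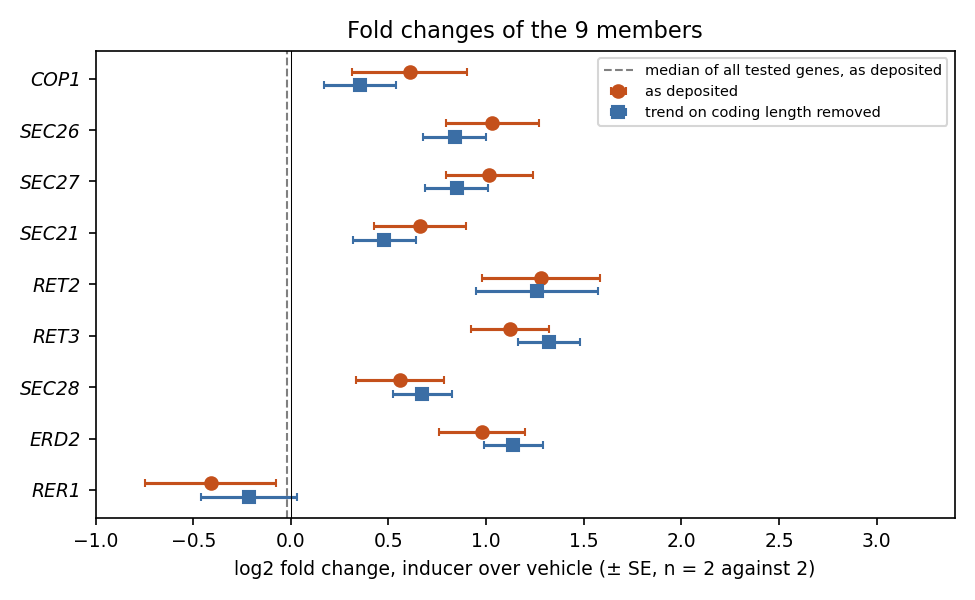
Fitted log2 fold change of inducer over vehicle for the 9 members, with its SE (n = 2 against 2), from the deposited values (circles) and after a trend on coding length was removed (squares); the dashed line is the median of all tested genes, -0.02. RER1 alone lies below that line, and the removal lifts RET3 and ERD2 while it lowers the large subunits.

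The subunits make up a shared complex, but their mRNA levels per length were far apart. With vehicle, RET3 held 56.1% and 54.9% of the summed RPKM of the 7 coat genes and RET2 3.52% in both libraries. The highest subunit exceeded the lowest 16.0-fold and 15.6-fold with vehicle, and 12.9-fold and 25.3-fold with inducer. In every library RET3 came first, followed by SEC28 and then SEC26. SEC27 and SEC21 changed places between the vehicle libraries and did not differ beyond their spread, and COP1 and RET2 changed places between vehicle and inducer. The summed RPKM of the coat went from 1510 and 1378 in vehicle libraries to 2811 and 2927 under inducer. Over the 9 members, coding length and mean vehicle level had a Spearman rho of -0.767, a description of genes in shared libraries. The 4 shortest, RER1, RET3, ERD2 and SEC28, had the 4 highest levels, from the 86.2 to the 94.3 percentile of tested genes, and the other 5 lay between 53.3 and 66.9. No member overlaps another annotated gene in R64, and none of their 50-base windows is repeated elsewhere in that genome.

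Erd2 acts on proteins that end in HDEL, so these were picked by sequence. Of 6002 proteins translated from the R64 reference, 11 end in HDEL. The last coding bases of all 11 are shown because they hold the signal itself, in R64 coordinates, read on the coding strand, with the codons for H, D, E and L in capitals and the stop codon after them. R64 is the genome of strain S288C and not of SK1.
KAR2, chrX:383346-383375, + strand: ggtgattatttcgaaCACGACGAATTGtag
MPD1, chrXV:852121-852150, - strand: tcctcaggaaacaagCACGACGAATTGtag
EUG1, chrIV:1480132-1480161, + strand: actgaagataccgtaCATGATGAATTAtaa
LHS1, chrXI:299046-299075, + strand: gaggaagacattttgCATGATGAATTAtag
PDI1, chrIII:48653-48682, - strand: gaagaagatgccattCACGATGAATTGtaa
KRE5, chrXV:953841-953870, + strand: aatgccgctcctctgCATGACGAATTAtaa
MPD2, chrXV:153912-153941, - strand: gaagataccagtagtCATGACGAGCTTtga
SED4, chrIII:233125-233154, - strand: aactacgctggccttCATGACGAATTGtga
CPR5, chrIV:1071880-1071909, - strand: gctagcgaagcagccCACGATGAACTCtaa
YOS9, chrIV:567526-567555, + strand: ggtgttttcatcgaaCATGATGAGCTTtaa
SEC20, chrIV:1445843-1445872, - strand: gacaggatcgtctcaCATGATGAGCTAtga

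Among these ligand genes, KAR2 led. Of the 11, 6 rose and none fell, with a median log2 fold change of 1.58, beside the background of 2.48% rises. KAR2, the ER Hsp70 chaperone, read 354 and 395 RPKM in vehicle libraries, against 4194 and 3612 RPKM under inducer (3.38, SE 0.20, limma adjusted p = 0.00177). MPD1 and EUG1, relatives of protein disulfide isomerase, changed by 2.63 (SE 0.32) and 2.57 (SE 0.22). LHS1, an Hsp70-like chaperone and exchange factor for Kar2, changed by 2.34 (SE 0.22). PDI1, protein disulfide isomerase, changed by 1.74 (SE 0.32), and KRE5, needed for cell wall glucan, by 1.58 (SE 0.31). Without the 20 nM inducer library, calls of PDI1 and KRE5 were lost (limma adjusted p = 0.0587 and 0.0909), which left 4 rises. With no variance trend both were lost too (limma adjusted p = 0.0737 and 0.0719). PDI1 was also lost with the length trend removed (limma adjusted p = 0.0528), and KRE5 with a pseudocount of 5, no filter or median scaling (limma adjusted p = 0.0513, 0.065 and 0.062).

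The other 5 HDEL genes did not pass. MPD2, another disulfide isomerase relative, read 128 and 106 RPKM in vehicle libraries, against 166 and 261 RPKM under inducer. CPR5, an ER cyclophilin, read 715 and 682 RPKM in vehicle libraries, against 533 and 1079 RPKM under inducer, lower at 20 nM and higher at 40 nM as RER1 was. YOS9, a lectin of ER-associated degradation, SED4, a relative of the COPII assembly factor Sec12, and SEC20, an ER SNARE, had fitted changes of 0.11, 0.13 and -0.36. SED4 and SEC20 are membrane proteins whose HDEL ends face the ER lumen.

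Summed over the 11 genes, HDEL mRNA read 1816 and 1926 RPKM in vehicle libraries, against 7676 and 7177 RPKM under inducer. For each ERD2 transcript per length there were 3.11 and 3.50 HDEL transcripts with vehicle, and 7.81 and 5.64 with inducer. KAR2 supplied 19.5% and 20.5% of the sum with vehicle and 54.6% and 50.3% with inducer. Without KAR2 the ratio to ERD2 was 2.50 and 2.78 with vehicle and 3.54 and 2.80 with inducer. The inducer ratios were above the vehicle ratios either way, though without KAR2 the 40 nM inducer ratio nearly met the higher vehicle ratio. These ratios were not tested, and they count mRNA, not protein.

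**Figure D4:**
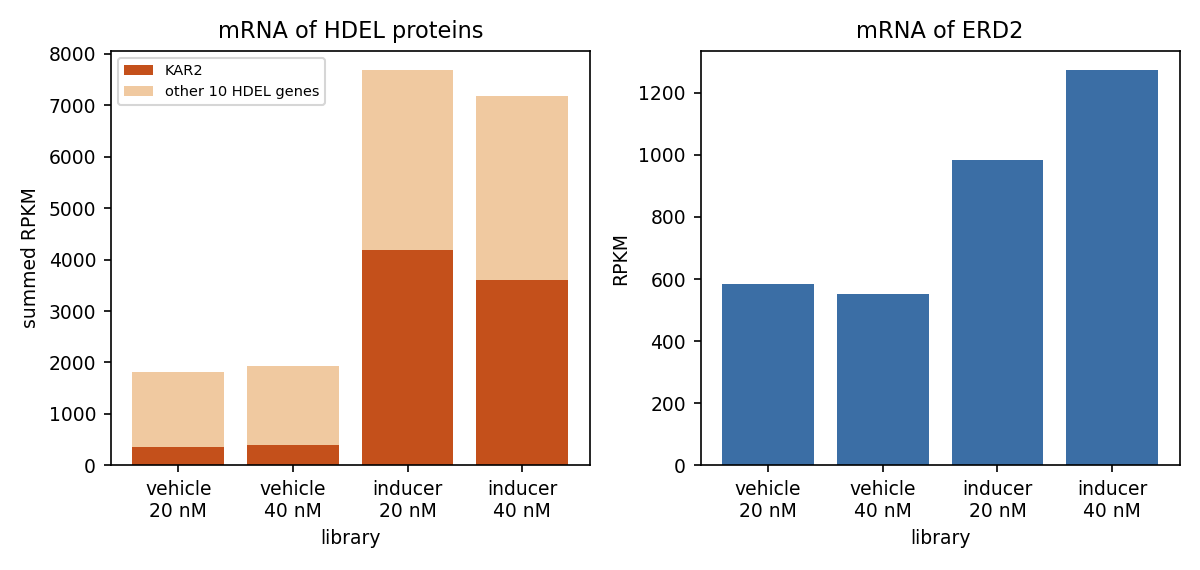
Left, summed RPKM of the 11 genes whose proteins end in HDEL, split into KAR2 and the other 10; right, RPKM of ERD2; 1 bar per library. The HDEL sum is 1816 and 1926 RPKM in vehicle libraries, against 7676 and 7177 RPKM under inducer, and ERD2 551 to 584 and 983 to 1272 RPKM.

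Proteins that Rer1 is known to retrieve were listed as well. The list has 4 genes, and 0 passed the test, with a median log2 fold change of 0.93. SEC66, of the Sec63 translocation complex, read 190 and 214 RPKM in vehicle libraries, against 348 and 561 RPKM under inducer (1.13, SE 0.28, limma adjusted p = 0.0901). SEC12, the exchange factor that starts COPII coats, read 37.0 and 37.5 RPKM in vehicle libraries, against 67.9 and 93.9 RPKM under inducer (1.08, SE 0.24, limma adjusted p = 0.0709). Both genes were higher in both inducer libraries than in either vehicle library, as was SEC63 (0.78), a translocation subunit. MNS1, an ER mannosidase, was lower in both (-0.42). SEC63 and MNS1 are named to complete the list, after their values were seen.

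Around the coat, of 9 genes of the Arf cycle 0 passed, with a median of 0.23. ARF2, a GTPase nearly identical to Arf1, read 694 and 611 RPKM in vehicle libraries, against 1005 and 1429 RPKM under inducer (0.88, SE 0.24, limma adjusted p = 0.115). GLO3, a GTPase-activating protein of Arf that binds coatomer, had a log2 fold change of 0.57 (SE 0.23, limma adjusted p = 0.284). Reads of ARF1 and ARF2 may be shared between these similar genes.

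Where retrograde vesicles dock at the ER, 8 genes of the Dsl1 tether and SNAREs had a median of -0.17 and 0 passed. SLY1, a regulator of SNAREs, lay at 38.9 and 41.8 RPKM with vehicle and at 83.2 and 78.4 RPKM with inducer (0.98, SE 0.21, limma adjusted p = 0.0633). USE1, a SNARE, read 40.1 and 51.6 RPKM in vehicle libraries, against 21.2 and 42.5 RPKM under inducer (-0.58, SE 0.35). The other 4 retrieval and retention factors, ERV41, ERV46, VPS74 and ERD1, had a median of -0.18 and 0 passed. ERD1, needed to keep ER proteins in, read 42.8 and 44.9 RPKM in vehicle libraries, against 26.3 and 40.9 RPKM under inducer, and VPS74, a COPI adaptor for Golgi enzymes, had a fold change of -0.27 on the log2 scale (SE 0.23). At an unadjusted p under 0.05, 2 of 9 Arf cycle genes, 1 of 8 docking genes, 0 of 4 retention factors and 3 of 4 RER1 clients were higher, against 9.07% of tested genes. Both inducer libraries lay above both vehicle libraries for 6 of 9 Arf cycle genes, 1 of 8 docking genes, 0 of 4 retention factors and 3 of 4 RER1 clients. This compares with 23.0% of tested genes. Both lay below for 0 of 9 Arf cycle genes, 3 of 8 docking genes, 3 of 4 retention factors and 1 of 4 RER1 clients, against 23.9% of tested genes.

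Other coats give a scale. The COPII coat, which works in the forward direction, had a median of 1.14 over 10 genes with 1 rise, SFB2, a cargo-binding subunit, at 30.8 and 25.1 RPKM in vehicle libraries, against 96.3 and 75.2 RPKM under inducer (1.58, SE 0.24, limma adjusted p = 0.0183). That call was lost without the 40 nM vehicle or the 20 nM inducer library (limma adjusted p = 0.0617 and 0.0593). Clathrin and the AP adaptor complexes, called clathrin genes for short, work after the Golgi. They had a median of 0.02 over 14 genes, and 0 passed. These counts of 1 and 0 stand beside the background of 2.48% rises. At an unadjusted p under 0.05, 6 of 10 COPII genes and 0 of 14 clathrin genes were higher, against 9.07% of tested genes. Some lists share genes: SEC12 counts for COPII and for RER1 clients, SED4 for COPII and HDEL, and SEC20 for docking and HDEL. Both inducer libraries lay above both vehicle libraries for 9 of 10 COPII and 4 of 14 clathrin genes, against 23.0% of tested genes. COPII thus shared the separation seen for 8 of the 9 COPI members. CLC1, clathrin light chain, read 119 and 144 RPKM in vehicle libraries, against 166 and 184 RPKM under inducer, and APL3, an adaptor subunit, 8.85 and 6.63, then 13.2 and 11.5 RPKM. With the length trend removed, the medians were 0.84 for the 9 COPI members, 1.03 for COPII and 0.03 for clathrin. The differences between these lists were not tested.

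**Figure D5:**
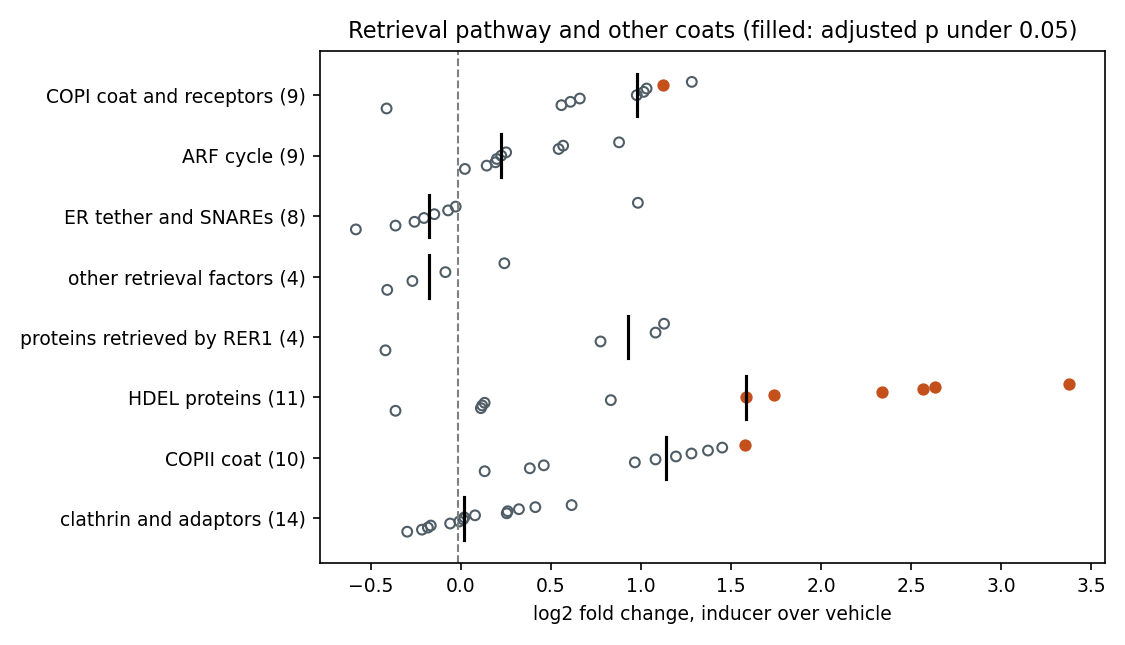
Log2 fold change of inducer over vehicle for every tested gene of 8 lists (number of genes in brackets); filled points passed an adjusted p of 0.05, vertical bars are list medians, and the dashed line is the median of all tested genes. The COPI and COPII points centre near 1 (medians 0.98 and 1.14) and the clathrin points near 0 (median 0.02).

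COPI also binds dilysine signals, and 167 translated proteins end in one, in the KKXX or KXKXX form. This pattern takes in proteins that never meet COPI, since membrane topology was not considered. Of 149 tested genes 6 rose and 2 fell, with a median of -0.06, beside the background of 2.48% rises and 0.733% falls. YET2, an ER membrane protein, changed by 4.11 (SE 0.32), MCD4, an enzyme of GPI anchors, by 3.26 (SE 0.22), and ERV29, a cargo receptor, by 1.65 (SE 0.28). YLL053C changed by -1.83 (SE 0.26).

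The promoter windows of the 9 members, 250 bases before the start codon and 50 from it on, were searched on both strands for motifs of the unfolded protein response. The core CAGCGTG, which KAR2 holds, occurred in 1.17% of 6001 windows and in 0 of the 9. ACACGTG occurred in 0.883% and in 0 of the 9. TACGTG occurred in 7.75% and in 1 of the 9, SEC26. The loose form CANCNTG, which includes CAGCGTG, occurred in 30.2% and in 7 of the 9, but in COP1, SEC27, SEC21, RET3 and RER1 a match spans the start codon, and in the 250 bases before it the motif was in 22% of windows and in 2 of the 9, RET3 and ERD2. Shown for comparison are the KAR2 element, the whole window of SEC26 as the holder of TACGTG (read here as its reverse complement), and that of RET3, the member that passed the test, all from R64, 5′ to 3′ on the coding strand. Capitals mark CAGCGTG in KAR2, TACGTG in SEC26 and CANCNTG, on either strand, in RET3. A match is a description of these letters, and its absence says nothing about binding.
KAR2, chrX:381152-381188, + strand: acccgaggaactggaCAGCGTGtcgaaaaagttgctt
SEC26, chrIV:940767-941066, - strand: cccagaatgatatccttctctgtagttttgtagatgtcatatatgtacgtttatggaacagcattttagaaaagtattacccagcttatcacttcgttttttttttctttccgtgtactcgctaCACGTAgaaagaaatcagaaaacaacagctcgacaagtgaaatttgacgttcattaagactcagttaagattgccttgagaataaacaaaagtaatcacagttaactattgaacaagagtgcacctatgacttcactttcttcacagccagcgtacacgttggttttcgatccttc
RET3, chrXVI:534768-535067, + strand: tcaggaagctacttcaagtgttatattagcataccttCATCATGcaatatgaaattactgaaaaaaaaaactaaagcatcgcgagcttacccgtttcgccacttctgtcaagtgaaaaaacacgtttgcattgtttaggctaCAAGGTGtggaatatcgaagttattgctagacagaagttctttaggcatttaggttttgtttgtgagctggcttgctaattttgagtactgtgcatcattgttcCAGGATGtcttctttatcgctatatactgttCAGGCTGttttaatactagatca

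Genes with the most similar course were sought by the distance between centred log2(RPKM + 1) profiles over the 4 libraries. Closest to the mean profile of the 9 members were TUB3 (distance 0.04), YRM1 (0.08) and NPL4 (0.09). Closest to RET3 were CKS1 (0.11), EGH1 (0.12) and YOL057W (0.13).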

How the data were processed

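The header names no unit. The authors' deposited values were taken as RPKM, because times coding length less 60 bases they are whole multiples of a fixed step in each library: 92.8% to 93.7% of values of up to 50 reads lay within 0.05 of a whole number. Depth and reads came from these steps, with lengths of the R64 reference, which matched 5982 of 6679 identifiers. STAR and SAMtools were used, per the submitters' processing notes, with no version or role; counter, build and annotation: not given in the sources used here. Inducer was compared with vehicle in limma (version 3.58.1, under R version 4.3.3) on the log2 of RPKM with a pseudocount of 1, with a variance trend, no covariate and a mean of at least 5 RPKM, so that dose counts as spread. Adjusted p-values are Benjamini-Hochberg over all tested genes. Proteins were translated from R64 coding sequences in place of the protein table planned, and promoter windows read from R64. The script was tested on simulated data. The members and lists were chosen with earlier results of these data known. Every member is named, with HAC1 and KAR2, every HDEL gene and, of other lists, up to 4 genes that passed or the 2 largest changes. Of the marker lists, counts and sums are given, with the vehicle values of some mating genes, named after their values were seen. The length classes, removal of the length trend and the RET3 and SEC26 windows were chosen after seeing the data. Alternatives were 2 pseudocounts, 2 filters, median scaling, dose as a block, no variance trend, each library left out and limma-voom on recovered reads.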

Additional observations from a re-analysis of the deposited data

Results flagged for a closer look

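RER1 had opposite signs at the doses, with a log2 ratio to the volume-matched vehicle of -0.99 at 20 nM and 0.17 at 40 nM. CPR5, an HDEL protein gene, did so too, at -0.42 and 0.66. Each ratio rests on 1 library per treatment, so these differences were not tested. Coding length moved with both ratios, and its part was not tested: the median ratio of genes of RER1's length class was -0.39 at 20 nM and -0.15 at 40 nM. With the length trend removed, the RER1 ratios were -0.62 at 20 nM and 0.19 at 40 nM, still of opposite sign.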

How the results depend on the processing

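The members' log2 fold changes kept their direction under all alternatives, save RER1, which ranged from -0.903 to 0.08 with 1 library left out, the latter without the 20 nM inducer library. Of the HDEL genes, YOS9 ranged from -0.09 to 0.314 and CPR5 from -0.388 to 0.627, the lows without the 40 nM inducer library, YOS9 was -0.029 without the vehicle library matched to 20 nM, and SED4 was -0.085 with the length trend removed. With any 1 library left out, rises among the 9 members numbered 0 to 7 and falls 0 to 1, where 7 rises and 1 fall, of RER1, came without the 40 nM inducer library, where the spread is that of the vehicle pair alone. Rises numbered 0 to 1 in the Arf, docking and clathrin lists, 0 to 3 among RER1 clients, 0 to 7 for COPII and 4 to 10 for dilysine proteins, with 0 to 18 falls of the last. Among the 9 members 0 rose with no variance trend (RET3 adjusted p = 0.0791 by limma), 2 with median scaling, against 2.88% of tested genes, and 5 with limma-voom on recovered reads, against 4.44%. Median scaling gave 1 rise of RER1 clients and 2 of COPII, and a filter of a mean of at least 20 RPKM gave 3 of COPII, against 3.22% of tested genes. Limma-voom gave 1 rise each in the Arf and docking lists, 3 among RER1 clients and 5 for COPII. Removing the length trend gave 4 rises of members, against 4.13%, 1 each in the Arf and docking lists, 2 among RER1 clients and 4 for COPII. With no variance trend 1 dilysine gene fell, where 0.470% of tested genes did. CANCNTG was held by 2 members in the 250 bases before the start codon. HDEL rises numbered 4 to 7 over all alternatives.

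The doses do not show that libraries pair: same-dose deviations from the group means correlated at -0.205 across genes. With dose as a replicate block, 2 members rose, against 4.57% of tested genes, as did 1 docking gene, 2 RER1 clients and 7 COPII genes. In that fit 4 dilysine genes fell, where 2.31% of tested genes did. With crossed doses, chosen after seeing the data, the replicate block gave 5 rises of members, against 6.83% of tested genes. It gave 1 rise each in the Arf and docking lists, 3 among RER1 clients and 7 for COPII. Of dilysine genes 12 rose and 13 fell, where 5.74% of tested genes fell. No label pairs libraries by crossed doses. The crossing was tried because the same-dose correlation was negative, which by itself favours more calls, so its calls are no added support for the rises. Over all tested genes, the 132 rises and 39 falls became 243 and 123 with the dose block, 363 and 305 with crossed doses, 230 and 77 with limma-voom, 308 and 417 without the 40 nM inducer library, 214 and 53 with the length trend removed, 153 and 65 with median scaling, and 108 and 25 with no variance trend. Depth limits the 20 nM inducer library most, where the median gene had 52 reads.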
